A study of Saccharomyces cerevisiae with 5 samples.

Results

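The genes described here encode assembly factors of the 60S subunit, the large subunit of the yeast ribosome. These proteins bind the precursor of the large-subunit RNA in the nucleolus, fold, cut and modify it, load ribosomal proteins onto it, and accompany the particle through the nucleus to the cytoplasm, without being part of the finished subunit. In budding yeast their genes are known as part of a large ribosome biogenesis regulon that follows the growth rate and nutrient supply of the cell. The members were a fixed list of 59 genes, looked up by symbol in the array's gene annotation; a feature was named for 57 of them, and all 57 had values in 2 or more hybridizations, out of 4368 genes and unnamed features that did. NOP16 and MDN1 had no feature under these names and were not analysed here. The genes were listed by their function, with earlier results of these data known.

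The study measured polyA RNA of Saccharomyces cerevisiae on 2-colour spotted arrays. Exponentially growing cultures were kept in syringes at 30 MPa and 25 °C for 16 h. The recovery sample (Cy5) was then grown for 2 h at 0.1 MPa after decompression, and the decompressed sample (Cy3) was harvested at 0 h, so that both had been under pressure and neither is an unpressurized culture. The sources used here do not give the strain. Per the labels, the 3 hybridizations come from independent biological samples, where the scanner read arrays 1 and 2 at both a high and a low laser power and array 3 once.

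A value is a log2 ratio, 1 per scan, and the scans of a hybridization were averaged. The direction is not stated and was taken as recovery over decompressed, the likely one from the order of the channels, and with the opposite numerator every direction below would be turned around. The dyes ran the same way on all arrays, so dye bias and real change cannot be told apart for any gene. In such ratios, more transcript per cell and more cells that carry the transcript cannot be told apart either. Hybridization 3 carried values for 2089 of 6336 features, against 3662 to 5007 in the scans of the others, and for 44 of the 57 members.

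As a group, the 60S assembly factors showed no large common shift after 2 h of recovery, and single members moved in both directions. Of the 57, 7 fell and 3 rose (limma, adjusted p threshold 0.05), while 47 did not pass the test. That is 12.3% lower and 5.26% higher, where among all 4368 features fitted 8.72% were lower and 8.45% higher. At an unadjusted p under 0.05, 15 members (26.3%) were lower and 6 (10.5%) higher, where all features had 16.3% and 16.1%. The members thus leaned to the lower side, by a few genes. Their median log2 ratio was -0.16, against -0.01 for all features. A mean below 0 was found for 38 of the 57 members and for 2206 of the 4368 features. The lowest and highest means were -1.25 and 1.23, well inside the range of all features, which ran from -3.49 to 3.22. For 30 of the members (52.6%) the 95% interval of the mean stayed within a 2-fold change in either direction, as it did for 48.1% of all features. The genes that fell were NOP12, NOG2, SPB4, NOP7, DRS1, DBP7 and RRP14, and those that rose were MAK16, LOC1 and RRP1.

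The hybridizations did not contribute alike. The median of the members was -0.34 in hybridization 1, -0.05 in hybridization 2 and -0.03 in hybridization 3, where the medians of all features were -0.03, 0.04 and 0.01. Without hybridization 1 the median of the members that could be fitted was 0.0033, with 1 called lower and 0 called higher of 42 (limma; 6.44% of all features were higher and 6.64% lower). Without hybridization 2 it was -0.02, with 2 lower and 1 higher of 41 (9.11% higher and 8.48% lower among all features). Without hybridization 3 it was -0.24, with 13 lower and 3 higher of 52 (12.1% higher and 13.0% lower among all features). The 13 members with no value in hybridization 3 had a median of -0.57, and the 44 with one had a median of -0.10. The 13 were also longer, with a median of 1992 bases against 1371. After the length correction described further on, the 2 medians were -0.36 and -0.13. Across members, which share their arrays, the ratios of hybridizations 1 and 2 had a Spearman rho of 0.70 over 52 genes, those of 1 and 3 of 0.41 over 41, and those of 2 and 3 of 0.39 over 42. A total of 24 members were below 0 and 8 above 0 in every hybridization with a value, a count not given here for all features. The other 25 had values of both signs, and in 11 of them hybridization 1 alone stood on the other side of 0, in 9 hybridization 3 alone.

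**Figure D1:**
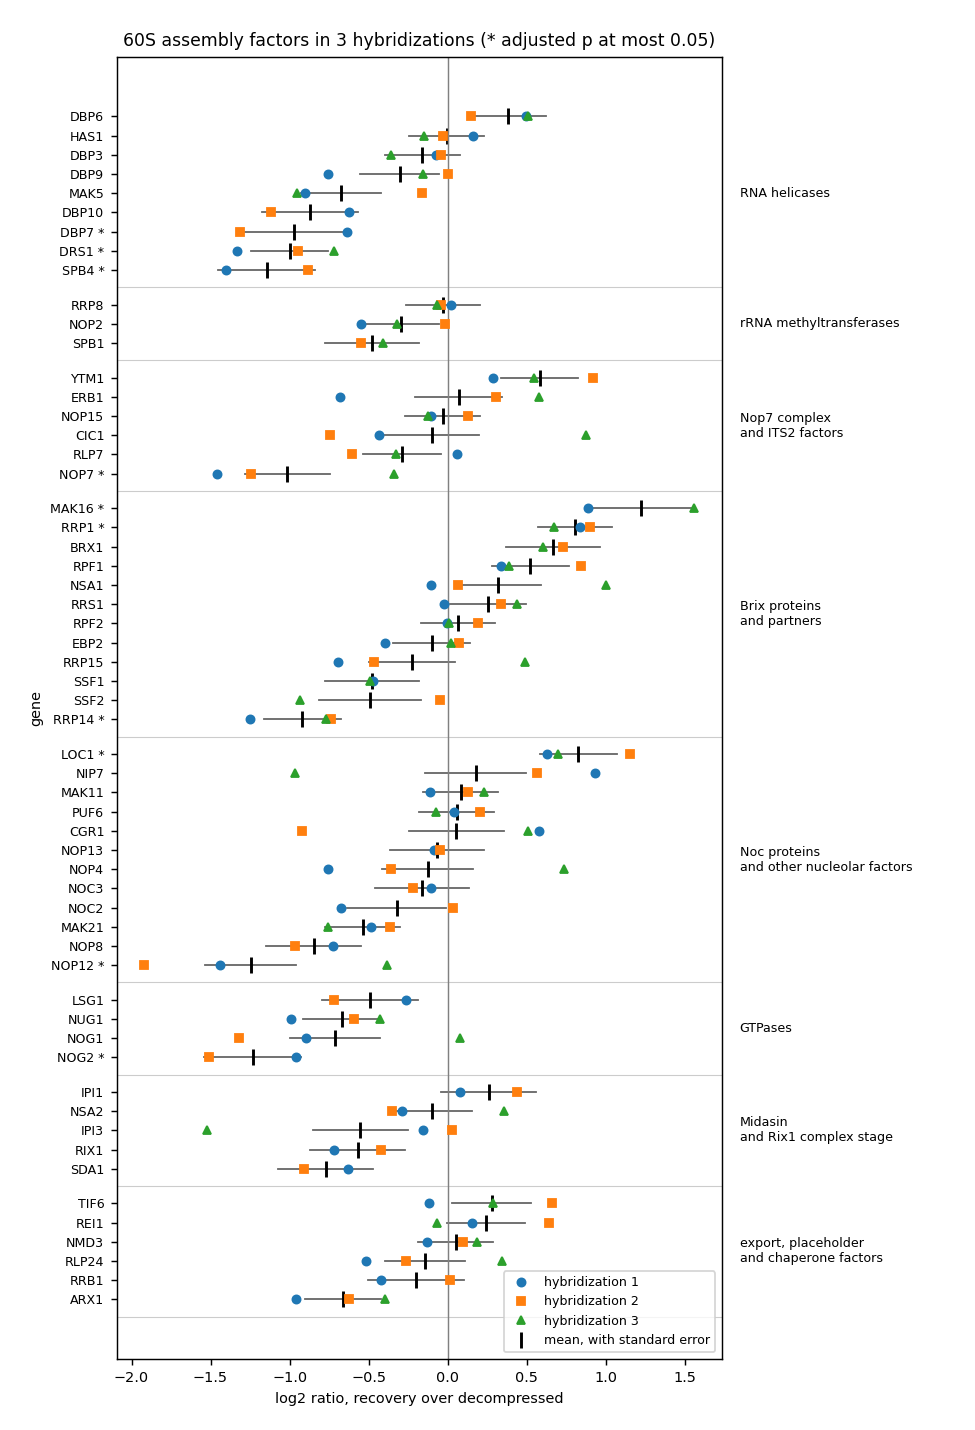
Log2 ratio (x axis, recovery over decompressed) of each of the 57 members (y axis), grouped by role; symbols are the 3 hybridizations, the black tick is the mean and the grey bar its standard error from limma. The 4 GTPase genes and the 3 rRNA methyltransferase genes have means below 0, while in the other groups members lie on both sides of 0. The values are not corrected for length. The 10 genes with a star passed the test.

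The RNA helicases, DEAD-box proteins that unwind and remodel the precursor RNA, held 3 of the 7 genes that fell. That is 33.3% of 9 genes, against 8.72% of all features. Their median was -0.67, with 8 of 9 means below 0. These genes are long, with a median of 1890 bases, and after the length correction described further on 2 were called lower (22.2%, against 8.78% of all) at a median of -0.46. SPB4 (YFL002C) had log2 ratios of -1.40 and -0.88 in hybridizations 1 and 2 and no value in hybridization 3. Both values were well below 0, and its mean was -1.14 (SD 0.37, n = 2, limma adjusted p = 0.0233), a 2.21-fold difference. DRS1 (YLL008W) had -1.33, -0.95 and -0.72, low in each hybridization, with a mean of -1.00 ± 0.31 (SD, n = 3, limma adjusted p = 0.0142). Without hybridization 1 its mean was -0.83 and missed the threshold (limma adjusted p = 0.112). DBP7 (YKR024C) had -0.63 and -1.31 in hybridizations 1 and 2, and at a mean of -0.97 it was the member just inside the threshold (limma adjusted p = 0.0478). It missed the threshold with the high power scans alone, at -0.80 (limma adjusted p = 0.0742), and after each hybridization was centred on its median, at -0.96 (adjusted p = 0.0501).

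Among the other helicases, DBP10 was just outside the threshold, with -0.62 and -1.12 in hybridizations 1 and 2 and a mean of -0.87 (limma adjusted p = 0.0667). MAK5 had -0.90, -0.16 and -0.95, low in hybridizations 1 and 3 and near 0 in hybridization 2. DBP6, which works in the earliest pre-60S particles, was the 1 helicase gene with a mean above 0. Its values were 0.49, 0.14 and 0.51, and its mean of 0.38 had a 95% interval from -0.13 to 0.89. DBP9, DBP3 and HAS1 had means of -0.30, -0.16 and -0.01 and did not pass. HAS1, a helicase that serves both subunits, had 0.16, -0.03 and -0.15, and its value in hybridization 2 is the mean of scans of opposite sign, 0.30 at high and -0.37 at low power.

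None of the 3 genes for enzymes that methylate the rRNA passed the test. Among all features 8.45% were called higher and 8.72% lower, so 0 calls among 3 genes does not set the group apart. SPB1, a methyltransferase of the late nucleolar particle, had -0.55 and -0.41 in hybridizations 2 and 3, below 0 in both, with a mean of -0.48 and a 95% interval from -1.12 to 0.16. NOP2 had -0.55, -0.02 and -0.32. RRP8 had 0.02, -0.04 and -0.07, and its interval ran from -0.53 to 0.48, so that a change of 2-fold lay outside it.

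The Nop7 complex (Nop7, Erb1 and Ytm1) sits on the precursor while its internal spacer is removed. Of the genes of its subunits, NOP7 passed the test and ERB1 and YTM1 did not; differences between them were not tested. NOP7 (YGR103W), the scaffold, had -1.46, -1.24 and -0.34, below 0 throughout but much nearer to 0 in hybridization 3. It fell by 1.01 on the log2 scale (SD 0.59, n = 3, limma adjusted p = 0.0205). Without hybridization 1 it was at -0.79 (limma adjusted p = 0.144) and without hybridization 2 at -0.90 (adjusted p = 0.0815), and it missed the threshold in both cases.

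YTM1, whose protein midasin later pulls off the particle, had 0.29, 0.92 and 0.54, above 0 and above NOP7 in each hybridization, and its mean of 0.58 did not pass (limma adjusted p = 0.114). ERB1 had -0.68, 0.31 and 0.58, which lie on both sides of 0. The spacer-binding factors RLP7, CIC1 and NOP15 had means of -0.29, -0.10 and -0.03. CIC1 was at -0.43 and -0.74 in hybridizations 1 and 2 and at 0.88 in hybridization 3, so that its SD of 0.86 was far larger than its mean.

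The Brix proteins, a family of RNA-binding assembly factors, and their partners included 2 of the 3 genes that rose. That is 16.7% of 12 genes, against 8.45% of all features, and 1 of the 12 fell (8.33%, against 8.72%). The group had a median of 0.16 and a median length of 978 bases. After the length correction described further on, 1 was called higher (8.33%, against 5.73% of all) at a median of -0.01. MAK16 (YAL025C) had 0.89 in hybridization 1 and 1.56 in hybridization 3, no value in hybridization 2, and the highest mean of all members, 1.23 (SD 0.47, n = 2, limma adjusted p = 0.0188), a 2.34-fold difference. RRP1 (YDR087C) had 0.84, 0.90 and 0.67, the most even values among the called genes with 3 hybridizations, with a mean of 0.81 ± 0.12 (SD, n = 3, limma adjusted p = 0.0315). It missed the threshold without hybridization 1, at 0.79 (limma adjusted p = 0.136), and without hybridization 2, at 0.76 (adjusted p = 0.107). Mak16 and Rrp1 are known to join the precursor as a module with Rpf1 and Nsa1. RPF1 had 0.34, 0.84 and 0.39, all above 0, with a mean of 0.52 that did not pass (limma adjusted p = 0.152). NSA1 had -0.11, 0.07 and 1.00, and its scans disagreed most of all members, with 0.13 and -0.34 at high and low power in hybridization 1 and -0.37 and 0.51 in hybridization 2.

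In the same group RRP14 (YKL082C), a nucleolar factor used by both subunits, fell. Its values were -1.25, -0.74 and -0.77, low in each hybridization, with a mean of -0.92 ± 0.29 (SD, n = 3, limma adjusted p = 0.0206). Without hybridization 1 it was at -0.75 and missed the threshold (limma adjusted p = 0.161). RRP15, at -0.70, -0.46 and 0.49, had values of both signs. BRX1 had 0.73 and 0.61 in hybridizations 2 and 3 and a mean of 0.67 (limma adjusted p = 0.14), while EBP2, which works beside it, was at -0.10. RPF2 and RRS1, which bring in the small rRNA particle with its ribosomal proteins, had means of 0.07 and 0.25 with 95% intervals from -0.44 to 0.57 and from -0.26 to 0.77. The paralogs SSF1 and SSF2 encode near-identical proteins, and the signals of such copies can mix on an array. SSF1 had -0.47 and -0.49 in hybridizations 1 and 3, and SSF2 had -0.05 and -0.93 in hybridizations 2 and 3; their means of -0.48 and -0.49 did not pass.

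Among the Noc proteins and the other nucleolar factors, 1 of 12 fell and 1 rose (8.33% each, close to the 8.72% and 8.45% of all features). NOP12 (YOL041C), an RNA-binding protein of large-subunit rRNA processing, had the lowest mean of all members. Its values were -1.44, -1.92 and -0.38, strongly low in hybridizations 1 and 2 and less so in hybridization 3, with a mean of -1.25 ± 0.79 (SD, n = 3, limma adjusted p = 0.0107), a 2.37-fold difference. Without hybridization 2 it was at -0.91 and missed the threshold (limma adjusted p = 0.0772), and without hybridization 3 it was at -1.68.

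LOC1 (YFR001W), an RNA-binding protein of the nucleolus also known from the localization of ASH1 mRNA, had 0.63, 1.15 and 0.70, above 0 in each hybridization. It rose by 0.83 ± 0.28 (SD, n = 3, limma adjusted p = 0.0316). It missed the threshold without hybridization 1, at 0.93 (limma adjusted p = 0.0762), and without hybridization 2, at 0.66 (adjusted p = 0.15). PUF6, whose protein is likewise known from both ribosome assembly and ASH1 mRNA, had 0.04, 0.21 and -0.07, and its 95% interval ran from -0.45 to 0.56. NOP8 had -0.73 and -0.97, both low, and a mean of -0.85 (limma adjusted p = 0.0683). NIP7, a partner of Nop8, had 0.93 and 0.57 in hybridizations 1 and 2 and -0.97 in hybridization 3, an SD of 1.01 around a mean of 0.18. Without hybridization 3 it was at 0.75 and passed (limma adjusted p = 0.0418).

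The Noc genes, whose proteins form dimers that escort the particle, had means of -0.54 (MAK21, also known as NOC1), -0.32 (NOC2) and -0.16 (NOC3), and none passed. NOC3 was on 2 features with identical deposited values. NOP4 and CGR1 had values of both signs, with SDs of 0.77 and 0.85. NOP13 and MAK11 stayed close to 0, at -0.07 and 0.08.

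The 4 genes for GTPases, which act as timed switches along the pathway, all had means below 0, with a median of -0.69. Of these 4, 1 fell (25%, against 8.72% of all features). These genes are long, with a median of 1933.5 bases. After the length correction described further on, 1 was still lower (25%, against 8.78% of all), at a median of -0.56. NOG2 (YNR053C), which guards the particle in the nucleus until it is ready for export, fell. It had -0.96 and -1.51 in hybridizations 1 and 2, both low, no value in hybridization 3, and a mean of -1.23 (SD 0.39, n = 2, limma adjusted p = 0.0171), a 2.35-fold difference. NOG1 had -0.90 and -1.32 in hybridizations 1 and 2 but 0.08 in hybridization 3, and did not pass at -0.71 (limma adjusted p = 0.0944). Without hybridization 3 it was at -1.11 and passed (adjusted p = 0.00391). NUG1 had -0.99, -0.59 and -0.43, below 0 throughout, at a mean of -0.67 (adjusted p = 0.0719), and LSG1, the cytoplasmic GTPase of the last steps, had -0.26 and -0.72.

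At the midasin and Rix1 stage the particle is remodelled in the nucleoplasm, and none of its 5 genes fitted passed. With 8.45% of all features higher and 8.72% lower, 0 calls among 5 genes does not set this stage apart. SDA1 had -0.63 and -0.91, both low, at a mean of -0.77 (limma adjusted p = 0.0933). The 3 subunits of the Rix1 complex had 95% intervals that overlapped, and differences between them were not tested. RIX1 had -0.72 and -0.42, IPI1 had 0.08 and 0.44, and IPI3 had -0.15, 0.02 and -1.53, so that the mean of IPI3, -0.55, rested on hybridization 3. NSA2 had -0.29, -0.35 and 0.36.

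None of the 6 export, placeholder and chaperone genes passed either, which does not set them apart where 8.45% of all features were higher and 8.72% lower. ARX1, an export factor, had -0.96, -0.62 and -0.40, below 0 in each hybridization, with a mean of -0.66 (limma adjusted p = 0.075); without hybridization 3 it was at -0.79 and passed (adjusted p = 0.0312). REI1, which removes Arx1 in the cytoplasm, had 0.15, 0.64 and -0.07. TIF6, which keeps the 2 subunits apart until the large one is mature, had -0.11, 0.66 and 0.29. NMD3, the export adaptor, had -0.13, 0.10 and 0.19, with a 95% interval of its mean from -0.46 to 0.56. RLP24, a placeholder for a ribosomal protein, and RRB1, the chaperone of Rpl3, had means of -0.14 and -0.20.

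Gene length moved with these values. Across all features with a length, the mean log2 ratio was lower for longer genes (RefSeq gene length), with a Spearman rho of -0.38 over 4170 genes, and rho was -0.58 over the 57 members. The 29 members of up to 1455 bases had a median of 0.06 on the log2 scale, the 28 longer ones one of -0.52. The 3 genes that rose were 615 to 921 bases long and the 7 that fell 1305 to 2259 bases. Members from 500 to under 1000 bases had a median of 0.25, near the 0.21 of all genes of that length. From 1000 to under 1500 bases the medians were -0.07 and -0.08, from there to under 2000 bases -0.30 and -0.16, and above that -0.57 and -0.27. The 3 higher calls were all among the 13 members from 500 to under 1000 bases, a band in which 12.2% of all genes were called higher and 3.50% lower. The lower calls were 2 of 15, 3 of 17 and 2 of 11 in the 3 longer bands, in which 11.2%, 11.3% and 13.8% of all genes were called lower.

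After the trend on length was removed in each hybridization, 6 of the 57 members were called lower and 1 higher (8.78% lower and 5.73% higher among the 4170 genes fitted), and the median of the members was -0.14. The trend was fitted over all genes, and among the members a part of it remained. Their corrected means still had a Spearman rho of -0.29 with length. The corrected median was -0.07 for the members of up to 1455 bases and -0.31 for the longer ones. NOP12 at -1.18, NOG2 at -1.06, SPB4 at -1.00, RRP14 at -0.88, NOP7 at -0.87 and DRS1 at -0.79 were still called lower, and MAK16 at 1.11 still higher. DBP7 at -0.77 (limma adjusted p = 0.107), RRP1 at 0.64 (adjusted p = 0.067) and LOC1 at 0.55 (adjusted p = 0.134) lost their calls. LOC1 was at 0.50 after centring within 16 groups of features in ID order (limma adjusted p = 0.0914). With both corrections together LOC1 was at 0.22 (limma adjusted p = 0.445). The ID order was not shown to follow positions on the array. RRP14 was at -0.66 after centring within groups of features (limma adjusted p = 0.057), and NOG2, with both corrections together, at -0.65 (adjusted p = 0.0831), where each missed the threshold. Centring within groups of features also moved members that had not passed. NOP8 was then at -0.37 (limma adjusted p = 0.307), ARX1 at -0.36 (adjusted p = 0.23) and SDA1 at -0.48 (adjusted p = 0.185), each nearer to 0. NUG1 was then further from 0 and passed (limma adjusted p = 0.0059).

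**Figure D2:**
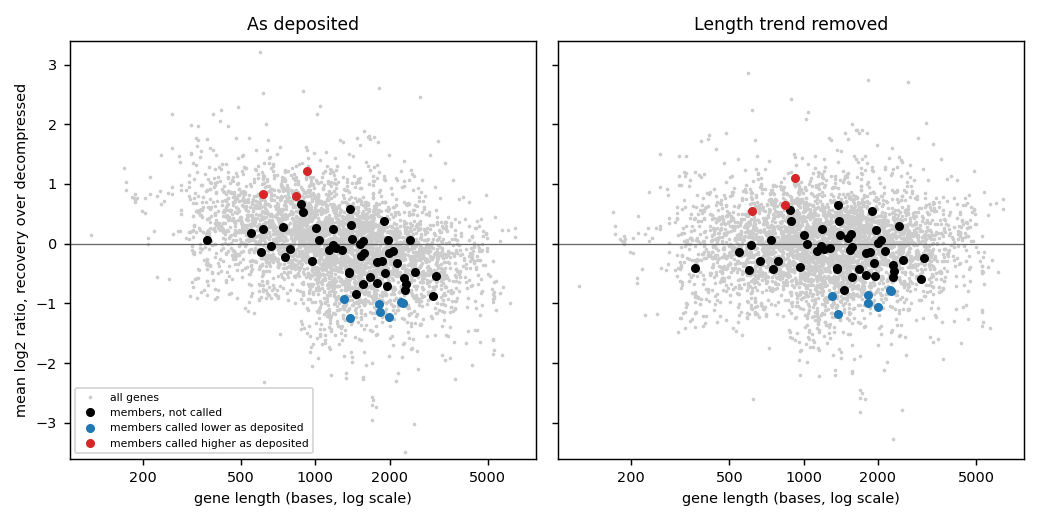
Mean log2 ratio (y axis) against gene length in bases (x axis, log scale) for all genes (grey) and the members (large points, coloured by their call as deposited), before (left) and after (right) the trend on length was removed in each hybridization. The 3 red genes that rose are short, 615 to 921 bases, and the 7 blue genes that fell are 1305 bases or longer; in the right panel the blue points lie between -1.18 and -0.77.

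A further list of 38 genes known to act in 60S assembly, none of them among the members, had 36 with values in 2 or more hybridizations. Of these 36, 4 fell (11.1%, against 8.72% of all features) and 3 rose (8.33% against 8.45%), at a median log2 ratio of -0.01, and after the length correction 2 were lower and 2 higher (5.56% each, against 8.78% and 5.73% of all). REH1, a paralog of REI1, fell, with -0.86, -1.25 and -1.08 in the 3 hybridizations and a mean of -1.07 (limma adjusted p = 0.00849), while REI1 itself did not pass. NOP53, a factor that recruits the exosome to the particle, fell to -1.10 ± 0.71 (SD, n = 3, limma adjusted p = 0.0175). SDO1, which helps to release Tif6 from the subunit, rose by 1.06 ± 0.38 (SD, n = 3, limma adjusted p = 0.011), and BCP1, the chaperone of Rpl23, by 0.86 ± 0.13 (adjusted p = 0.0242). RIA1, the GTPase that works with Sdo1 on Tif6, was at -1.07 and -1.23 in hybridizations 1 and 2 and fell; it was named after its values were seen. RIA1 is 3333 bases long and lost its call after the length correction, at -0.85 (limma adjusted p = 0.065), where REH1, NOP53, SDO1 and BCP1 kept theirs.

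Of 54 genes of 40S assembly fitted, the small-subunit counterpart, 12 fell (22.2%, against 8.72% of all features) and 0 rose in limma (2 were higher at an unadjusted p under 0.05), at a median of -0.20. After the length correction 4 of them were lower (7.41%, against 8.78% of all) and 0 higher. RCL1, at -1.14, and SAS10, at -0.85, had the smallest p values there. Of 62 genes of 60S ribosomal proteins, the cargo of the assembly factors, 10 rose (16.1%, against 8.45% of all features) and 0 fell in limma (1 was lower at an unadjusted p under 0.05), at a median of 0.42, with RPL23B at 1.34 and RPL26A at 1.12. Both have a near-identical paralog, whose signal can mix with theirs on an array. The 10 calls include RPL12A and RPL12B, RPL23A and RPL23B, and RPL26A and RPL26B, so they may not be 10 separate signals. The ribosomal protein genes had a median gene length, introns included, of 832 bases and the assembly factors one of 1455 bases. After the length correction the medians were 0.19 and -0.14, with 6 ribosomal protein genes higher (9.68%, against 5.73% of all) and 1 lower. These lists are set side by side as counts, and differences between them were not tested.

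**Figure D3:**
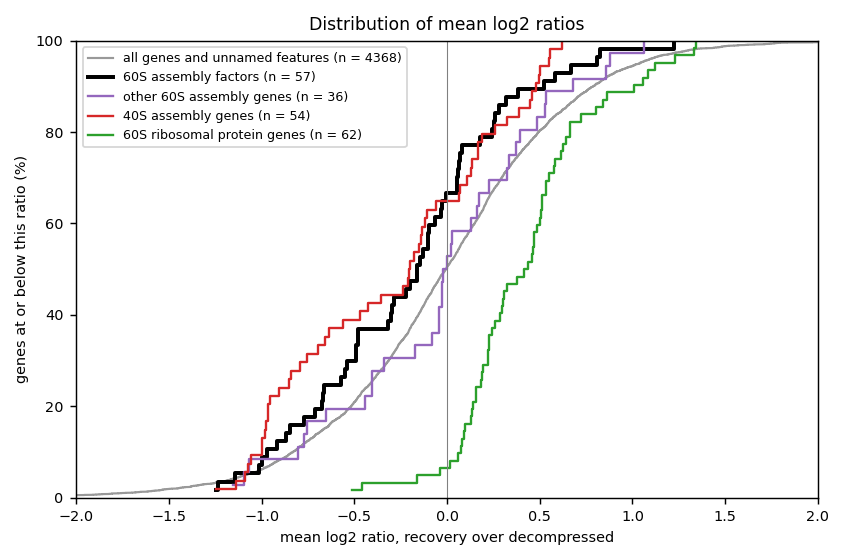
Share of genes in percent (y axis) at or below a given mean log2 ratio (x axis) for the members, for 3 related lists and for all features. The black curve of the members runs left of the grey one near the middle, with medians of -0.16 and -0.01, and the 60S ribosomal protein genes lie to the right, at a median of 0.42.

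The counts also depended on the rule for missing values and on the estimate of the spread. With values in all 3 hybridizations required, 4 members were lower and 2 higher of 39 (12.2% lower and 15.1% higher among all features). With the 5 scans and the hybridization as a random block, 14 were lower and 4 higher (13.0% and 12.8% of all). With limma's default prior over all genes, 13 were lower and 3 higher (12.7% and 11.9% of all). In the last 2 fits the lower share among members, 24.6% and 22.8%, was above that of all features.

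Of the 10 members called, MAK16 and SPB4 kept their call in all 11 alternatives in which they could be fitted. Each has values in only 2 hybridizations, so neither could be fitted with all 3 required or without either of these 2. Leaving out the hybridization in which the gene had no value left its mean unchanged. These 2 calls are therefore not shown to be firmer than those of genes fitted in 14 alternatives. All 10 kept the sign of their mean in every alternative run. The mean of LOC1 ran from 0.22 to 0.93 over the alternatives, and it passed in 9 of 14.

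**Figure D4:**
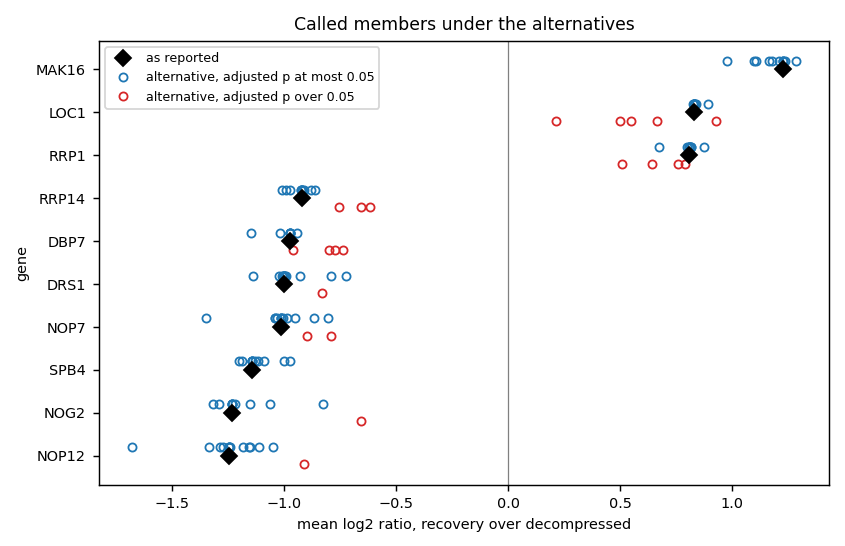
Mean log2 ratio (x axis) of the 10 called members (y axis) as reported (black) and under each alternative (open circles; blue where the adjusted p was at most 0.05, red where it was over). All values of a gene lie on 1 side of 0, and MAK16 and SPB4 have no red circle. Both have values in only 2 hybridizations and could not be fitted without either of these.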

How the data were processed

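The authors deposited log2 ratios of LOWESS-normalized spots, 1 column per scan; per the labels' protocols, polyA RNA was labelled with dUTP dyes and spots with flag 0 entered the normalization. Base 2 was read from the values (the lowest is the log2 of 0.01). The software and the array's genome build are not given in the sources used here. Of 6336 features, 5297 had 1 gene name in the platform annotation, none several and 1039 none.

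Features of a gene and then scans of a hybridization were averaged. Genes with values in 2 or more hybridizations were fitted with limma 3.58.1 (R 4.3.3, intercept against 0, two-sided, Benjamini-Hochberg over 4368). With 2 and 3 values mixed, limma's default prior ignored each gene's own spread, so the prior (12.2 degrees of freedom) came from genes with 3 values. This change was made after seeing the data. It was run on data simulated with about the same degrees of freedom and without the default beside it. That run therefore cannot show which prior is better. The default is given as an alternative. No pseudocount or floor was used. The p-values rest on 3 samples at most, and array number limits precision. Lengths are RefSeq gene lengths, introns included (97.4% multiples of 3, and NOG2 spans an intron). Those of several ribosomal protein genes, such as RPL30 (548 bases) and RPL39 (542 bases), are not multiples of 3 either. Such lengths can overstate the transcript, so the length correction of that list is less certain. Length trends were removed by lowess.

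Members and lists were chosen with earlier results of these data known. Values by hybridization are given for members past the threshold with 1 sign, the extremes of each role group, members next to the threshold and SSF1 and SSF2, beside other members; of other lists, up to 2 genes a direction with the smallest p. Promoter motifs were not analysed here.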

Additional observations from a re-analysis of the deposited data

How the results depend on the processing

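The members counted as lower were 4 of 39 with values in all 3 hybridizations required, 14 of 57 with the 5 scans and the hybridization as a random block, and 13 of 57 with limma's default or its robust prior, against 7 of 57 as reported. The members counted as higher were 1 after the length correction, against 3. Leaving out 1 hybridization gave 0 to 3 higher and 1 to 13 lower members, and over all features 129 to 510 higher and 133 to 547 lower, partly because fewer genes can then be fitted (1933 to 4213). All features called higher numbered 561 with the random block and 239 after the length correction, against 369, and those called lower 230 with all 3 hybridizations required, against 381; the cause was not tested. The length correction moved the share of higher calls to 39.5%. Among single members, 639 values under alternatives kept their call, or stayed uncalled and moved by less than their spread. Another 45 stayed uncalled but moved further, 37 gained and 21 lost a call, and none changed sign while called. The block added DBP10, MAK5, NOP8, NOG1, NUG1, SDA1 and ARX1 to the lower genes and YTM1 to the higher. The series has 1 group, and each value is already a ratio of both samples on the same array, so no separate paired analysis was run. Scans of the members differed by a median of 0.07 in hybridization 1 and 0.17 in hybridization 2, which bounds what single-scan values can show.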

Other observations

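Some members lie next to another ribosome assembly or ribosomal protein gene on their chromosome, and in none of the 7 pairs found among the lists were both genes called. Among all features 8.45% were called higher and 8.72% lower, so pairs with both genes called would be few in any case. In the pair of NMD3 and DBP8, DBP8 was not fitted and could not be called. NOG2, at -1.23, lies beside ESF2, a 40S assembly gene at 0.26 that did not pass. RIX1, at -0.57 without a call, lies beside UTP9, which fell to -0.95. MAK5, at -0.67, lies beside BMT2, at 0.17, and NSA2, at -0.10, beside LCP5, at -0.18. RRP15, at -0.22, lies beside NOC4, at 0.19, and CGR1, at 0.06, beside RPL30, at 0.16. NMD3, at 0.05, lies beside DBP8, which had no mean. These neighbours were looked up after the values of the members were seen, and no test was run on them.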
